A study of Mus musculus with 2 samples.

Results

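The cytosolic ribosomal protein genes code for the protein part of the ribosomes that translate nuclear messages. They were taken from the gene tables as protein-coding genes with a symbol of the Rpl or Rps form, plus Rplp0, Rplp1, Rplp2 and Rpsa, without the Rps6k kinases. The rule used symbols and no measured value. It found 83 genes among 21474 protein-coding genes and 43346 mouse genes. Of these, 31 code for core proteins of the small (40S) subunit, 46 for core proteins of the large (60S) subunit, and 6 are paralogues of a core gene (Rpl3l, Rpl7l1, Rpl10l, Rpl22l1, Rpl39l and Rps27l).

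Total RNA was sequenced from liver of healthy embryos of mouse strain B6NCrl at embryonic day 11.5, with male and female embryos pooled. The labels give 1 group of 2 biological replicates and no treatment, genotype or control, so levels and differences between the libraries are described and no condition was compared. Replicate 1 came from 109 embryos, and for replicate 2 no pool size was found in the labels. Values are mean ± SD over the 2 libraries (n = 2) or are given as replicate 1 and replicate 2, and any spread covers these pools only.

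A ribosome holds 1 copy of nearly every one of these proteins, so a growing cell needs them in near-equal numbers. The core genes are short, strongly transcribed and free of tissue restriction, and most of their messages begin with a run of C and T that ties their translation to growth signals. Mouse genomes also hold many reverse-transcribed copies of their messages, most of them annotated as processed pseudogenes. In the fetal liver, which makes red cells beside its own hepatoblasts, ribosome supply is known to limit red cell formation: loss of 1 allele of several of these genes causes Diamond-Blackfan anaemia in people.

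The libraries held 34344230 and 31477397 estimated counts, of which 31721267 and 29750192 lay on mouse genes, and members had between 0 and 58271 counts in replicate 1 and between 0 and 54069 in replicate 2. The spike-in RNAs held 14.6% and 11.1% of TPM (a level per length, scaled to the same total over all features of a library). All 12 hepatoblast and all 12 red cell markers of the lists passed a floor of 1 TPM in both libraries. Hepatoblast markers summed to 12012 and 13260 TPM, and red cell markers to 61694 and 64750 TPM.

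Together the members held 9.12% of mouse gene TPM in replicate 1 and 8.61% in replicate 2 (8.87% ± 0.358). Their share of estimated counts, which grow with length, was 3.87% and 3.58%. The core genes are short, with a median length of 680 bases against 2453 bases for all detected protein-coding genes. The median member stood at 895 and 867 TPM in the libraries (881 ± 19.7), against 2.82 and 2.87 TPM for the median protein-coding gene. The floor of 1 TPM in both libraries was passed by 81 of the 83 members, compared with 12165 of 21474 protein-coding genes (56.6%). All 77 core genes passed that floor, and 76 of them reached 100 TPM in both libraries. Members took 37 of the 100 highest places among protein-coding genes, 12 of the highest 50 and 1 of the highest 20.

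**Figure D1:**
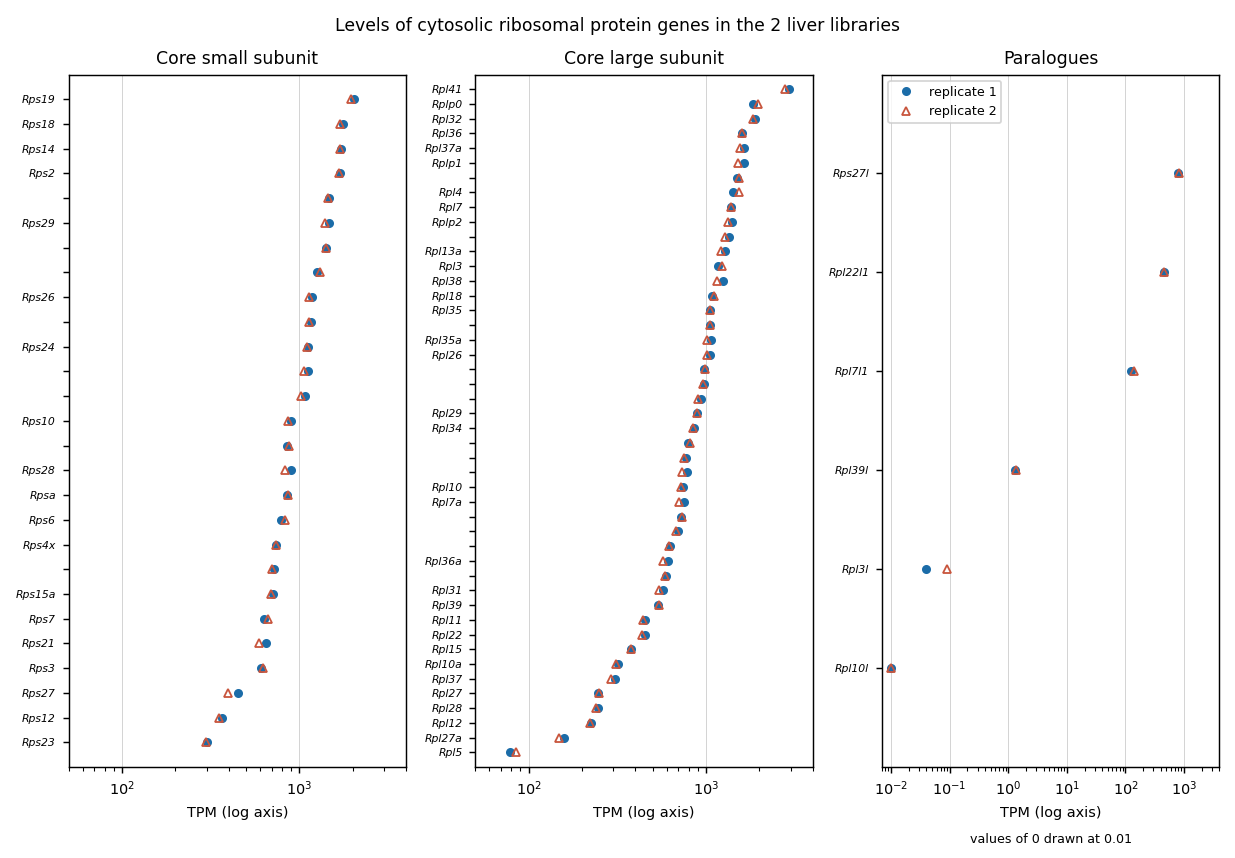
Levels of 79 of the 83 genes in TPM on a log axis (the other 4 are not shown, and names are given for genes described in the text), with replicate 1 as filled circles and replicate 2 as open triangles, for core small subunit genes, core large subunit genes and paralogues. The 2 libraries lie close together for nearly every gene. Rpl10l, listed at 0, is drawn at the left edge, and the core genes run from 81.7 TPM (Rpl5) to 2875 TPM (Rpl41).

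The highest of all members was Rpl41 (chromosome 10, 128548114 to 128549305, minus strand), which codes for the shortest ribosomal protein. It stood at 2949 and 2801 TPM (2875 ± 105), place 18 among protein-coding genes. TPM is scaled by transcript length, listed as 458 bases for Rpl41, and not by coding length. The Rpl41 coding sequence of 25 codons, shown for its shortness, was read from the transcript with the highest deposited TPM (GRCm38, minus strand, start codon in capitals, stop codon left out):
Rpl41: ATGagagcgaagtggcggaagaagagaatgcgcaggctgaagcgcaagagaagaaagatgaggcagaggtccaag

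The median core small subunit gene had 1075 and 1028 TPM, and the median core large subunit gene 875 and 868 TPM. The small subunit median was the higher one in both libraries. The log2 ratio of the large to the small subunit median was -0.30 in replicate 1 and -0.24 in replicate 2 (-0.27 ± 0.04). The small subunit genes lay between 301 TPM (Rps23) and 1999 TPM (Rps19), with an SD of 0.68 on the log2 scale across genes. The large subunit genes were spread more widely as deposited, between 81.7 and 2875 TPM, with an SD of 1.03. With the TPM of sequence-matched copies added (defined below), the 2 subunits were closer in spread. The SD was then 0.51 for small subunit genes (615 to 2417 TPM) and 0.59 for large subunit genes (446 to 3099 TPM).

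Among small subunit genes, Rps19, whose protein is needed to mature the rRNA of that subunit and whose mutation is the most frequent cause of Diamond-Blackfan anaemia, was the highest at 2029 and 1970 TPM. Rps18 stood at 1756 and 1700 TPM, and Rps14, a gene lost in a myelodysplastic syndrome with anaemia, at 1713 and 1700 TPM. Rps2, a protein of the mRNA entry channel, stood at 1700 and 1678 TPM. These genes were all among the 10 highest members, and the libraries differed little in each. Rps3, another protein of the entry channel, was lower at 605 and 625 TPM, and Rpsa, which is also known as a laminin receptor precursor, had 856 and 867 TPM. Rps6, the protein that growth-signalling kinases phosphorylate, had 784 and 834 TPM.

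Among large subunit genes, the stalk proteins that recruit translation factors ranked near the top. Rplp0, the base of the stalk, was measured at 1832 and 1955 TPM. Rplp1 followed at 1645 and 1522 TPM, and Rplp2 at 1409 and 1336 TPM. In each library the order was Rplp0, Rplp1, Rplp2, although the ribosome carries more copies of the Rplp1 and Rplp2 proteins than of Rplp0. Rpl32 (1889 and 1838 TPM), Rpl36 (1594 and 1597 TPM) and Rpl37a (1633 and 1547 TPM) were also among the 10 highest members. Rpl3, which reaches into the peptidyl transferase centre, stood at 1177 and 1229 TPM, and Rpl10, which joins late and completes the subunit, at 743 and 725 TPM.

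The 10 lowest core genes as deposited were Rpl5, Rpl27a, Rpl12, Rpl28, Rpl27, Rpl37, Rps23, Rpl10a, Rps12 and Rpl15. Each of these 10 had a sequence-matched copy elsewhere in the genome that carried a large part of the reads. A copy was defined as another gene of the tables, small RNA genes left out, that shares at least 50% of its 31-base words with a member. There were 253 such copies of 67 members, of which 244 are annotated as pseudogenes, 8 as protein-coding and 1 as a long noncoding RNA. They held 203825 and 173769 estimated counts, or 14.2% and 14.0% of the counts of members and copies together. For 24 copies every word is also present in the member. In 9 members copies held 50% or more of the counts of member and copies, and in 19 members 25% or more. All of the 10 lowest core genes were among those 19, and 1 of the 20 highest was.

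Rpl5 was the clearest case. Its protein binds 5S rRNA together with Rpl11, and the complex is known as a sensor of stalled ribosome assembly. The Rpl5 gene (chromosome 5, 107900502 to 107909005, plus strand) was listed at 78.3 and 85.0 TPM with 2582 and 2424 counts, the lowest level of any core gene and place 1733 among protein-coding genes. Gm15500, a transcribed processed pseudogene (chromosome 7, 114705217 to 114706235, minus strand), was listed at 985 and 1021 TPM. All 792 windows of 100 bases in the 891 bases of Rpl5 coding sequence are identical in Gm15500, so reads that lie within the coding sequence cannot be told apart. The first 100 coding bases, shown as an example of what both genes share, come from the Rpl5 transcript (GRCm38, plus strand) and have no capitals because no base differs:
Rpl5 and Gm15500: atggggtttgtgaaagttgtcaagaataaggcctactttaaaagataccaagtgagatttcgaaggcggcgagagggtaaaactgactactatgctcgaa
The copies of Rpl5 held 23255 and 21178 counts, nearly all on Gm15500 and many times the counts of Rpl5 itself. With the TPM of the copies added, Rpl5 stood at 1086 ± 29.7 TPM, and with their counts added at the effective length of Rpl5 it stood at 806 TPM.

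Rps27, a zinc-finger protein of the small subunit, was the next. Its gene (chromosome 3, 90212522 to 90213651, minus strand) was listed at 449 and 398 TPM. Rps27rt, an annotated protein-coding gene on another chromosome (chromosome 9, 114982366 to 114982739, minus strand), was listed at 1066 and 1070 TPM, above Rps27 in both libraries. The coding sequences of Rps27 and Rps27rt are identical over all 252 bases, so a read within them fits both genes equally. Rps27rt held 80.5% and 82.4% of the counts of the pair. The deposited model of Rps27 spans 255 bases and an effective length of 156 bases, the shortest of any core gene. The authors deposited an interval of TPM with no level stated, which for Rps27 ran from 387 to 494 in replicate 1 and from 333 to 440 in replicate 2. Averaged over the libraries, its width was 25.8% of the deposited posterior mean TPM (441 and 387), the widest of any core gene. With the copy added, Rps27 stood at 1491 ± 33.5 TPM, or at 2279 TPM where the counts of the copy were added at the length of Rps27.

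The other 7 members with 50% or more of their counts on copies lie on both subunits. Rps12 and Rps23, which sits near the decoding site, belong to the small subunit, Rpl12 lies at the base of the stalk, and Rpl27 is linked to anaemia. Rpl27 had 246 and 249 TPM with 76.8% and 76.3% of counts on copies. Rps23 had 302 and 299 TPM with 71.2% and 70.6%, nearly all on the pseudogene Rps23-ps1, itself listed at 1504 and 1444 TPM. Shares were 65.6% and 65.3% for Rpl28, 64.2% and 64.8% for Rpl27a, 62.1% and 59.2% for Rpl12, 62.0% and 59.4% for Rps12, and 59.9% and 59.7% for Rpl15. The share differed little between the libraries for each of these genes. Pseudogenes named after a member were also counted, by name alone and without the word rule that defines a copy. Their 5 largest shares by the mean of the libraries were those of Rps23 (71.2% and 70.6%), Rpl28 (65.5% and 65.3%), Rpl27 (65.1% and 65.3%), Rpl15 (59.9% and 59.7%) and Rpl10a (43.9% and 42.4%). Rpl31 (42.2% and 44.0%) and Rps6 (44.4% and 40.7%) were close to Rpl10a, each above it in 1 library.

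**Figure D2:**
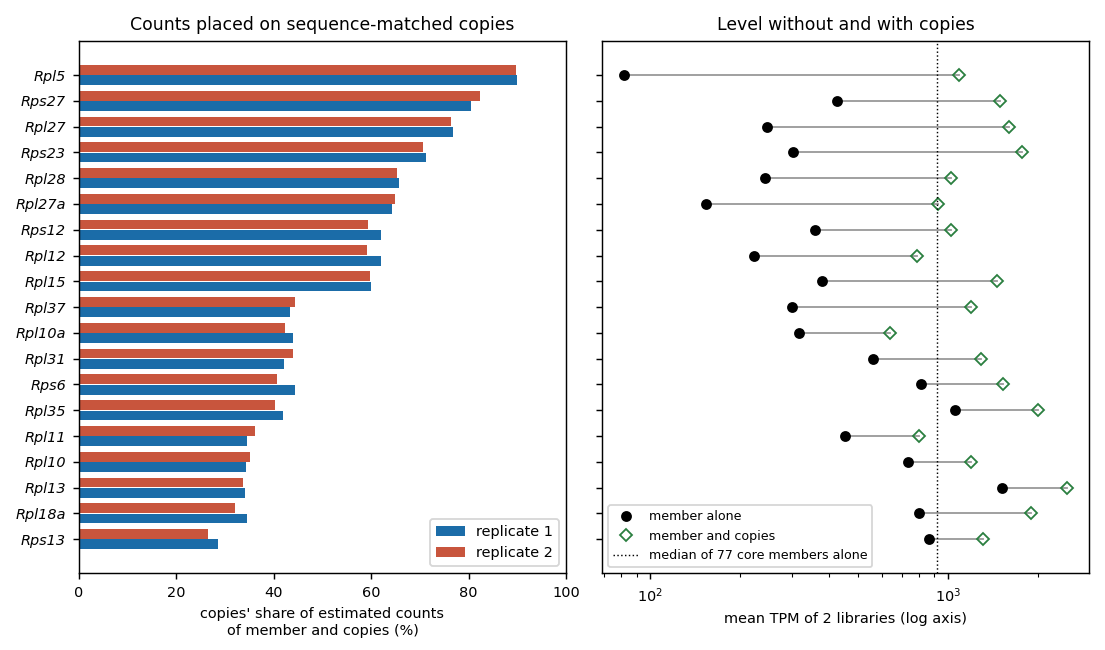
The 19 members with 25% or more of their counts on sequence-matched copies. Left, share of estimated counts (%) on copies in replicate 1 and replicate 2; right, mean TPM of the 2 libraries on a log axis for the member alone (filled) and with its copies (open diamonds), the dotted line being the median of the 77 core genes alone. With copies added, 11 of 19 lie above the core median with copies of 1192 TPM. A low level of the member itself raises the share, so the low levels alone are partly fixed by how these 19 were chosen.

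Core levels were compared without and with copies. As deposited, core levels ran over a 35.2-fold range with an SD of 0.92 on the log2 scale, and 59 of 77 genes lay within 2-fold of their median of 918 TPM. With the TPM of copies added, the range was 6.94-fold, the SD 0.56, and 72 of 77 genes lay within 2-fold of a median of 1192 TPM. With the counts of copies added at each member's own length, the range was 7.06-fold and again 72 of 77 genes lay within 2-fold. Adding only pseudogenes named after a member gave an SD of 0.83 on the mean levels. The lowest core gene with TPM added was then Rpl22, which has no copy by this definition (446 ± 11.4 TPM). In the 31 core genes with under 1% of counts on copies, the deposited levels had an SD of 0.57, ran from 446 TPM (Rpl22) to 1999 TPM (Rps19) and had a median of 1156 TPM. In the 9 core genes with 50% or more on copies the deposited median was 247 TPM, and with copies it was 1086 TPM. The share on copies contains the member's own counts and the definition of a copy was chosen after the levels were seen, so these splits are descriptions and the part of copies in the spread was not tested.

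Sharing was also present in the sequence itself. It was read for the members only, so no share over other genes is set beside it. The main transcript of 82 members could be matched in GENCODE M21 and was read in windows of 100 bases. For 25 of them the model in that release differs in length from the deposited one, so the windows describe the newer model. In 30 members 50% or more of the windows were repeated in a transcript of another gene, and in 9 members none was, among them Rpl22, Rpl32, Rps3 and Rps21. Rpl32, the fourth highest member at 1864 ± 36.2 TPM, had the same model length in both releases.

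Paralogue pairs were compared within the libraries. A pair counts as ordered here where the sign of the log2 ratio (pseudocount of 0.1 TPM) was shared by the libraries, the mean ratio exceeded their difference, and the deposited intervals were apart in each. There is no p-value, because 2 values allow an exact permutation p of 0.5 at the lowest. By this rule 10 of 11 pairs were ordered.

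The tissue-restricted paralogues were low or not detected. Rpl3l, known from heart and skeletal muscle, was listed at 0.04 and 0.09 TPM with 1 estimated count in each library, while Rpl3 stood above 1000 TPM in both. Rpl10l, known from the testis, had 0 counts in each library. A limit of 3 counts corresponds to 0.126 and 0.144 TPM (counting error only). Rpl10 was thus at least 5905-fold higher in replicate 1 and at least 5029-fold higher in replicate 2. Rpl39l, also known from the testis, was just above the floor at 1.31 and 1.38 TPM, with 19 and 22 counts, against 535 and 543 TPM for Rpl39, a mean log2 ratio of 8.54 ± 0.03. At so few counts this SD does not cover counting error. On scaled counts the log2 ratio of Rpl39l between the libraries was -0.32. These 3 paralogues had the widest deposited intervals of all members relative to their posterior mean TPM, followed by Rps27 and Rps12. Rpl39 and Rpl39l are 85.0% identical over 153 coding bases, 23 bases differing. Both are shown because these differences are what allows reads to be placed (GRCm38, Rpl39 on chromosome X, minus strand, Rpl39l on chromosome 16, plus strand, capitals marking bases of Rpl39l that differ):
Rpl39: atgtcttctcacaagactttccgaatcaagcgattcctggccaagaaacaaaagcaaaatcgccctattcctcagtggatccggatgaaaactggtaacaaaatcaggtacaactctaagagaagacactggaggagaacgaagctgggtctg
Rpl39l: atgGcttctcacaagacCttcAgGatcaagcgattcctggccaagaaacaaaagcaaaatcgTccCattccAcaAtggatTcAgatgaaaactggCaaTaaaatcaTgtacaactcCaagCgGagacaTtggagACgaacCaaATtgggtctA

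Rpl22l1 and Rpl22 had near-equal levels. Rpl22l1 stood at 449 and 448 TPM and Rpl22 at 454 and 438 TPM. This was the only pair of the 11 without an order, the intervals overlapping in both libraries. Loss of Rpl22 is known to raise Rpl22l1 in mice, and here both messages were present at once. Rpl7l1, a paralogue found in ribosome precursors, was lower than 76 of the 77 core genes, Rpl7 among them, with 124 and 140 TPM against 1383 and 1378 TPM (mean log2 ratio 3.39 ± 0.13). Rps4l, which GENCODE lists as a transcribed processed pseudogene and which is thus no member, had 160 and 159 TPM against 744 and 742 TPM for Rps4x (2.22 ± 0.00).

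Rps27l, a paralogue known to respond to DNA damage, stood at 785 and 814 TPM, above the 449 and 398 TPM listed for Rps27. The mean log2 ratio of Rps27 to Rps27l was -0.92 ± 0.16. The order was the opposite once Rps27rt was added to Rps27: the ratio was 0.90 with its TPM and 1.51 with its counts. Rps27 and Rps27l differ at 60 of 252 coding bases (76.2% identical), so reads of Rps27l can be placed where reads of Rps27 and Rps27rt cannot. Both coding sequences are shown for that contrast (GRCm38, Rps27 on chromosome 3, minus strand, with Rps27rt on chromosome 9 the same at every base; Rps27l on chromosome 9, plus strand, capitals marking its differing bases):
Rps27 and Rps27rt: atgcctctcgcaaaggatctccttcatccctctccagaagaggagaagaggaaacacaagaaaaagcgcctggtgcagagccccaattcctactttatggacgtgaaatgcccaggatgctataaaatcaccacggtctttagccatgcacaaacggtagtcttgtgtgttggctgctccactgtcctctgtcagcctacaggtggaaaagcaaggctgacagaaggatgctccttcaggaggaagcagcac
Rps27l: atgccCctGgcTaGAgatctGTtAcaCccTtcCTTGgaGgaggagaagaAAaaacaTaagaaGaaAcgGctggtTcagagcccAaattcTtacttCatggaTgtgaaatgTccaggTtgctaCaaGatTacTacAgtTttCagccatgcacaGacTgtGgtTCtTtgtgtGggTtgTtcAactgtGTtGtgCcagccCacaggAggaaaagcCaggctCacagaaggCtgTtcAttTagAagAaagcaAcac

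The remaining pairs join proteins that work together or that come from different genes for the same product. Rpl36al, a second gene for a protein nearly the same as Rpl36a, stood at 808 and 815 TPM, above Rpl36a at 614 and 573 TPM (-0.45 ± 0.08). Rplp1 was above Rplp2 by a mean log2 ratio of 0.21 ± 0.03. Rpl5 was below its 5S partner Rpl11 (455 and 444 TPM) as deposited, with a mean log2 ratio of -2.46 ± 0.11, but above it with the TPM of copies added to both (0.44) and with counts added (0.21).

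Genes linked to Diamond-Blackfan anaemia in people spanned nearly the whole range of core levels. The median of the 18 genes was 974 and 936 TPM, and that of the other 59 core genes 932 and 903 TPM. No test was made of this difference. By mean TPM, those described here ran from Rps19 (1999), Rps29 (1440), Rps26 (1156), Rps24 (1110) and Rpl18 (1099) through Rpl35 (1053), Rpl35a (1041), Rpl26 (1034), Rps10 (882) and Rps28 (862) to Rps7 (653), Rpl31 (558), Rpl11 (450), Rps27 (423), Rpl15 (378), Rpl27 (247) and Rpl5 (81.7). With the TPM of copies added, the 18 genes lay between 801 TPM (Rpl11) and 2417 TPM (Rps29) with a median of 1219 TPM, against 1192 TPM for the others.

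Ribosomal proteins whose symbols fall outside the rule had levels like those of the core genes. They include Rps27rt and Rpl36al, described above, Rack1, the scaffold on the head of the small subunit, at 956 and 931 TPM, and Fau, which makes a small subunit protein fused to a ubiquitin-like one, at 712 and 684 TPM. The lowest was Fau, with a mean of 698 TPM.

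Other gene lists of ribosome making and use were lower. The 77 mitochondrial ribosomal protein genes, whose products build the separate ribosome of that organelle, were all detected and had a median of 100 and 106 TPM, with Mrpl17 (342 and 343 TPM), Mrpl42 (286 and 280 TPM) and Mrps21 (264 and 253 TPM) the highest. The core median of 918 TPM was 9.06-fold above the mitochondrial one. Their SD was 0.85 on the log2 scale, close to the 0.92 of the core genes as deposited. The 20 proteasome genes, another complex of fixed composition, had a median of 286 and 315 TPM with Psma7 (553 and 574 TPM), Psmb6 (496 and 499 TPM) and Psma3 (454 and 508 TPM) the highest. Their SD was 0.48, and all 20 lay within 2-fold of their median, a spread nearer that of the core genes with copies added (0.56).

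Translation factors had a median of 144 and 163 TPM over 43 genes, but Eef1a1, which delivers tRNA to the ribosome (3565 and 3736 TPM), Eif5a (2282 and 2484 TPM) and the start codon factor Eif1 (1663 and 1675 TPM) were as high as the highest ribosomal protein genes. The core proteins that modify rRNA with guide RNAs had a median of 156 and 175 TPM over 15 genes, led by Nop56 (396 and 426 TPM), Snu13 (326 and 348 TPM) and Nop58 (305 and 335 TPM). Large subunit assembly factors had a median of 76.1 and 79.6 TPM over 43 genes. Npm1, the abundant nucleolar chaperone, stood above the rest of them at 1472 and 1475 TPM, with Rrp1 (196 and 216 TPM) and Mrto4 (200 and 196 TPM) next. Small subunit assembly factors had 56.1 and 60.9 TPM over 36 genes, with nucleolin, Ncl, at 682 and 661 TPM, Emg1 at 251 TPM in each library and Imp4 at 106 and 123 TPM. RNA polymerase I subunits and factors, which transcribe the rRNA genes, had a median of 43.4 and 43.3 TPM over 20 genes. Their highest members, Polr2f (335 and 329 TPM), Polr2e (195 and 192 TPM) and Polr1d (137 and 146 TPM), are shared with other polymerases.

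Of 14 chaperones and importers of ribosomal and nascent proteins, Btf3 (682 and 707 TPM) and Naca (445 and 454 TPM), the partners of the nascent polypeptide complex, and the histone chaperone Nap1l1 (206 and 228 TPM) were the highest, and the median was 71.6 and 79.7 TPM. Of 12 regulators of ribosomal protein message translation, the cap-binding inhibitor Eif4ebp1 (166 and 170 TPM) and the mTOR activator Rheb (127 and 133 TPM) were among the 3 highest, and the median was 32.9 and 28.5 TPM. The 8 genes that rescue stalled ribosomes stood at 25.3 ± 0.392 TPM in the median, with the recycling factor Abce1 (133 and 158 TPM), Hbs1l (74.2 and 92.1 TPM) and Nemf (31.1 and 30.5 TPM) the highest. Every gene of these lists passed the floor of 1 TPM in both libraries. Liver tissue mixes cell types, so fewer cells of a type and less RNA per cell cannot be told apart in any of these levels.

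**Figure D3:**
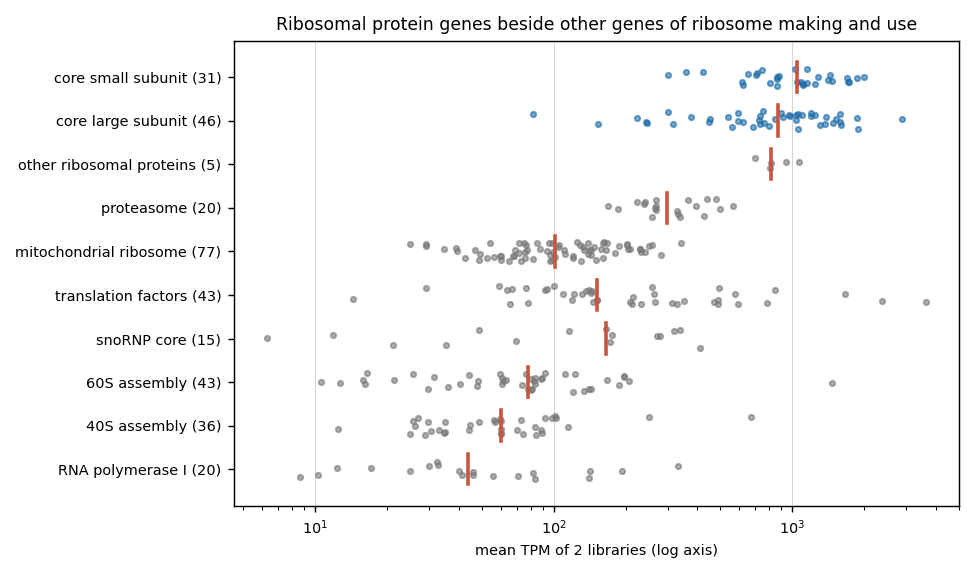
Mean TPM of the 2 libraries on a log axis for each gene (points) of the core subunit lists (blue) and of other lists (grey), with the number of genes in brackets and the median as a red bar. Core subunit genes and the ribosomal proteins outside the symbol rule lie well above the mitochondrial ribosome, whose median the core genes exceed 9.06-fold.

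The start sites of ribosomal protein genes are known for a tract of C and T, which forms the beginning of the message and is read by Larp1 under the control of mTOR. RefSeq promoter windows (GRCm38.p6, 250 bases before to 50 after the start) were at hand for 63 of the 83 members, in 75 windows. Within 50 bases of the start, on the strand of the gene, a run of 8 or more C or T was present in 77.3% of member windows and 35.4% of all 21263 protein-coding windows. A run of 10 or more was present in 64.0% against 18.1%, and the letters CTTTCC in 29.3% against 4.35%. The 4 windows with the longest run (Rpl7a, Rpl27a, Rpl34 and Rpl35) are shown with Rpl41, the most abundant member, whose longest run has 4 bases. Each covers 35 bases before the start and 25 from it, 5′ to 3′, with the longest run of C and T in capitals. They lie at chr2:26910772-26910831 (plus), chr7:109519160-109519219 (plus), chr3:130730313-130730372 (minus), chr2:39005107-39005166 (minus) and chr10:128549144-128549203 (minus):
Rpl7a: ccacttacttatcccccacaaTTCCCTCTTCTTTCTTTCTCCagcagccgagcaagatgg
Rpl27a: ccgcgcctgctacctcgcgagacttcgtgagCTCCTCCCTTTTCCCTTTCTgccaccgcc
Rpl34: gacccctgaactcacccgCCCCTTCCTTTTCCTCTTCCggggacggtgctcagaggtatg
Rpl35: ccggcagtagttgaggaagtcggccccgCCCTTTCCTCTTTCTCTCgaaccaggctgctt
Rpl41: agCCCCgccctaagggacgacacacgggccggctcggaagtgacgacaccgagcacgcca

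In the 4 windows with long runs the tract spans the annotated start. The longest run, whatever its length (4 to 21 bases), covers the start in 18 of the 75 member windows. That share was not counted over all protein-coding windows, so it has no background here. Other letters were searched on both strands of the 300 bases, and no test of these shares was made. CCGGAAG, which factors of the ETS family bind, was present in 36.0% of member windows and 11.6% of all, and AAGATGG, which YY1 binds, in 16.0% against 6.24%. The CGCG palindrome known from housekeeping promoters was present in 9.33% against 0.673%, and TGACGTCA in 6.67% against 2.23%. GGGCGG, the SP1 box, was present in 45 of 75 member windows and in 46.2% of all. CCAAT was present in 29.3% against 38.2%. For TATAAA alone, 9.33% of member windows (7 of 75) was near the background of 12.6%. A match describes letters in these windows and not a bound site, and windows of 1 gene can overlap.

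Members are also hosts of small nucleolar RNA genes, which guide rRNA modification and are cut from introns. Of the 83 members, 30 (36.1%) hold 58 snoRNA genes on their own strand within the gene span, against 256 protein-coding genes in all (1.19%). Rpl4 holds 5 and Rpl13a holds 4. The median span of the 30 hosts was 3232 bases, that of all core genes 3289 bases and that of detected protein-coding genes 23720 bases.

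In 47 members the main transcript held 90% or more of the level in both libraries, and 22 members had 1 transcript model. Of the 61 members with several models and counts in both libraries, 59 had the same main transcript in each. The exceptions were Rpl3l and Rpl39l, which had 1 count, and 19 and 22 counts, per library. In 4 members the main transcript is itself annotated as not protein-coding. Among them are Rpl35, with 92.0% and 91.0% on a processed transcript, and Rpl12, with 67.0% and 65.1% on a model marked for nonsense-mediated decay. Rps24, whose last exons are known to be spliced differently between tissues, had 81.4% and 82.9% on a model of 468 bases and the rest on a longer one of 837 bases.

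In 13 members with 100 counts or more on average, the main transcript held under 60% in at least 1 library. Rpl3l, Rpl10l and Rpl39l also fell under 60% but had 22 counts or fewer, and Rpl10l had none to divide. In some of them the remainder lay on another coding model: Rpl38, which is known to steer translation of Hox messages in the mouse embryo, had 40.5% and 40.7% on its main transcript, and Rpl15 had 47.4% and 40.8%. The same held for Rps14 (49.7% and 55.3%), Rpl11 (49.9% and 51.0%), Rpl27 (57.5% and 56.3%), Rpl29 (57.7% and 57.1%) and Rpl35a (60.3% and 58.2%). In others of the 13 a model annotated as noncoding held a large part of the remainder. Rps18 had 51.0% and 55.6% on its main transcript and 45.0% and 40.9% on a processed transcript, Rpl7 had 51.0% and 53.0% with 33.4% and 29.2% on one, and Rpl22l1 had 51.8% and 51.2% with 32.8% and 35.5%. Models with a retained intron together held 24.1% and 22.6% of Rps19, whose main transcript had 50.5% and 50.7%. In Rpl5 the 4 such models together held 48.9% and 51.5%, more than the main transcript with 44.7% and 43.8%. The main model of Rpl13a (39.1% and 34.8%) is not in GENCODE M21 and its class is unknown here. Reads shared between overlapping models are divided by a model, so these shares are estimates. For every member they leave out the counts placed on its copies.

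The libraries were close for the members. After scaling by the trimmed mean of M-values, 0 of 81 members at 10 counts or more on average differed by 1.5-fold or more, against 1829 of 16607 genes (11.0%). That background is made largely of genes with few counts: at a mean of 100 or more counts it was 1.49%, and 0 of 80 members passed. Below the 1.5-fold limit, 75 of 81 members were higher in replicate 1 and 6 in replicate 2. The median log2 ratio of replicate 1 to replicate 2 was 0.11 for the members and -0.01 for 14418 protein-coding genes. On the ratio of deposited TPM the members' median was 0.03, with 55 of 81 higher in replicate 1. That TPM is scaled over all features, and spike-ins took up 14.6% of it in replicate 1 and 11.1% in replicate 2. Members held 7.79% and 7.66% of all TPM, against 9.12% and 8.61% of mouse gene TPM. The size of the members' lean to replicate 1 thus depends on the scale, in part on whether spike-ins are in the total. The highest ratios were those of Rps27 (0.26), Rps21 (0.22), Rps15a (0.21), and Rps28, Rplp1 and Rpl27a (0.20 each). With the counts of its copy added Rps27 had 0.11, the median of the members, and on TPM Rps27 had 0.17, Rps21 0.13 and Rps15a 0.04. The lowest were those of Rpl39l (-0.32, at 19 and 22 counts), Rpl7l1 (-0.09), Rpl4 (-0.03), Rpl5 (-0.02) and Rps6 (-0.01). With copies added, Rpl5 (0.02) and Rps6 (0.09) were above 0.

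The ratio moved with length. Core genes under 500 bases of effective length had a median log2 ratio of 0.15, with 31 of 31 higher in replicate 1, and longer core genes had 0.09, with 42 of 46 higher. Protein-coding genes at 1000 counts or more on average had 0.11 under 500 bases (127 of 133 higher in replicate 1) and -0.04 above (2265 of 6128). These sets include the core genes, so the 31 short core genes are among the 133. Across genes, which are not replicates and share both libraries, Spearman's rho of the ratio with effective length was -0.59 over 77 core genes and -0.25 over 6261 such protein-coding genes. Mitochondrial ribosomal protein genes had a median ratio of 0.01. On scaled counts, 10 of 10 heart muscle markers were more than 1.5-fold higher in replicate 1, and their summed level was 307 and 133 TPM. Ryr2 (0.25 and 0.18 TPM) and Myh7 (2.84 and 0.90 TPM) were under a TPM of 1 in at least 1 library, and none was at 0. The part of heart RNA and of length in the members' ratio was not tested.

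**Figure D4:**
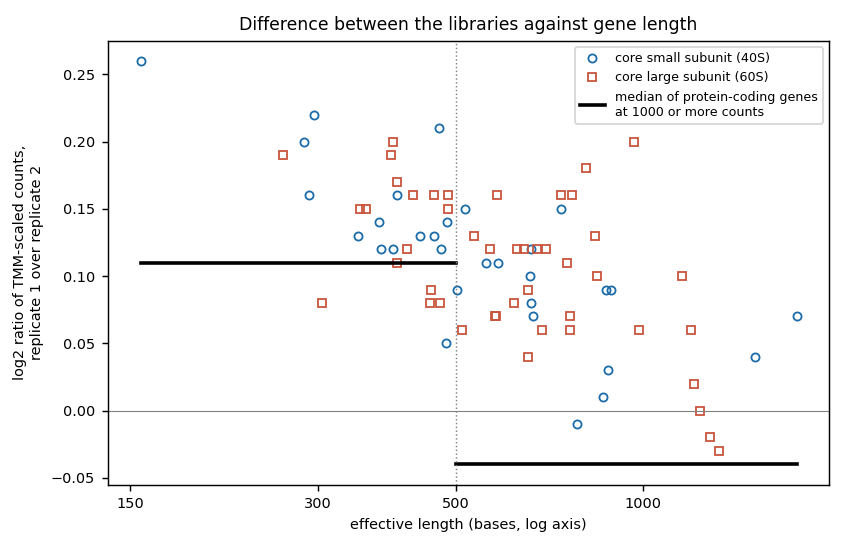
Log2 ratio of scaled counts, replicate 1 over replicate 2, against effective length in bases (log axis) for core small subunit genes (circles) and core large subunit genes (squares), with black bars for the median of protein-coding genes at a mean of 1000 or more counts on each side of 500 bases (dotted line). Shorter core genes lie higher, the median being 0.15 under 500 bases and 0.09 above. The genes behind the black bars include the core genes.

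The deposited intervals did not always hold the deposited level. Among the 83 members, TPM lay above the upper bound of its own interval for 49 in replicate 1 and 52 in replicate 2. Of 1329 protein-coding genes at 100 TPM or more in both libraries, it did so for 358 and 455. These 2 sets are unlike: the members had no such floor, and 79 of them are among the 1329. The deposited posterior mean of the core genes had a median of 0.978 times the TPM in replicate 1 and 0.975 times in replicate 2. The intervals were therefore used to compare genes within a library and not as an error around TPM.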

How the data were processed

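Each library came with a gene and a transcript table. Per the labels, the assembly was mm10, and the notes deposited with the tables name GENCODE M4. For alignment and quantification, tools and versions: not given in the sources used here. Estimated counts, in which a model divides ambiguous reads among genes, were deposited by the authors together with TPM over all features, spike-ins included. FPKM, the percent of a gene's expression per transcript, and posterior mean TPM were also deposited by the authors. The deposited credibility bounds of TPM have no stated level. Effective length was 99 bases below length for every member.

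Symbols, classes and coordinates came from GENCODE M21 (on GRCm38, which is also the assembly called mm10) by gene identifier, and 884 of 43346 genes did not match. The 97 spike-ins and 26248 numbered features were left out of shares. Counts were rounded and scaled with edgeR 4.0.16 (TMM) or DESeq2 1.42.0 in R 4.3.3, with a pseudocount of 0.5 counts. The code for the ratio and its calls was run on simulated counts with counting error only and with changes larger than 1.5-fold. That run held no variation between pools, so it does not bear on how reliable the 1.5-fold calls are here. Copies were found by 31-base words of GENCODE transcripts in Python 3.11.15. The 3-count limits hold for counting error alone: without molecular identifiers, several reads can come from 1 molecule. The replicates are separate pools.

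The members and lists were chosen with earlier results of these data known. Genes were named by a rule: the 10 highest and 10 lowest members, both genes of each pair, anaemia-linked members, and the 5 highest and 5 lowest log2 ratios between libraries, ties included. The rule also took the 5 members with the widest intervals, the 5 with the largest named pseudogene share, and members with a main transcript under 60% or different between libraries. It further took ribosomal proteins outside the symbol rule and the 3 highest of each list. Some genes it takes are not reported here. Rps3, Rpsa, Gm15500 and other copies were chosen after their values were seen, as was the definition of sequence-matched copies.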

Additional observations from a re-analysis of the deposited data

How the results depend on the processing

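The share of mouse gene TPM (8.87%) was 7.72% with all TPM as denominator, 3.73% of estimated counts, 9.77% with named pseudogenes added, and 11.2% or 10.3% with sequence-matched copies added as TPM or as counts; with 1 library left out it ranged from 8.61% to 9.12%. The median member (881 TPM) was 646 as FPKM, 1011 with TPM rescaled to mouse genes, 1125 with copies added and 918 for core genes alone, and 867 to 895 with 1 library left out. The log2 ratio of large to small subunit medians (-0.27) stayed below 0 in each alternative run: it was -0.21 on counts, -0.19 with named pseudogenes, -0.18 and -0.21 with copies as TPM and as counts, and -0.30 to -0.24 with 1 library left out. The SD of core levels, here averaged over the libraries (0.92), was 0.99 on counts, 0.92 on posterior means, 0.93 without genes under 300 bases of effective length, 0.84 with named pseudogenes, 0.56 and 0.59 with copies as TPM and as counts, and 0.92 with either library left out. The copy alternatives were chosen after seeing the data.

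With copies as TPM and as counts, the log2 ratio of Rps27 to Rps27l turned from -0.92 to 0.90 and 1.51, and that of Rpl5 to Rpl11 from -2.46 to 0.44 and 0.21. The reads of members and identical copies cannot be told apart, and no other pair changed direction where it had one. Of 11 pairs, 10 were ordered with a pseudocount of 1 TPM and on posterior means. Counts (11) and added pseudogenes or copies (10 each) have no intervals, so only the sign and size rules were applied, and in each library alone only the intervals (10). The median log2 ratio between the libraries (0.11) was 0.12 with DESeq2 size factors, 0.13 with total counts and 0.03 on TPM, spike-ins included. The count of members past 1.5-fold was 0 in every alternative run. The share of all genes past it was 8.98% with a pseudocount of 5 counts, 1.49% at 100 counts or more on average and 16.7% with no filter. Members detected numbered 80 at a floor of 10 TPM and 81 at 0.1 TPM, and on posterior means 82 members had the same main transcript in both libraries, against 81 (Rpl10l, at 0, included). No paired analysis was possible because there is 1 group and its 2 libraries share no replicate number with another. Depth limits Rpl3l, Rpl10l and Rpl39l, at 22 counts or fewer in each library.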
